A study of Drosophila melanogaster with 6 samples.

Results

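The genes of Polycomb repressive complex 1 (PRC1) were examined for trimethylation of histone H3 lysine 27 (H3K27me3) on their own loci in Drosophila melanogaster wing imaginal discs. The 7 genes were Psc, Su(z)2, ph-p, ph-d, Pc, Sce and Scm, found by symbol among 17684 annotated genes, 13922 of them protein-coding, on the 6 chromosome arms of assembly Release 6, which dm6 names. The study profiled H3K27me3 by CUT&RUN, which releases antibody-bound chromatin with a tethered nuclease, in third-instar larval discs, the precursors of the adult wing and thorax. Per the labels, one genotype was Act5C-GAL4, alphaTub84B-GAL80ts/UASt-H3 K27M, which expresses the oncohistone, and the control was Act5C-GAL4, alphaTub84B-GAL80ts/UASt-H3 K27R. Each genotype had 3 libraries, made up of 2 for H3K27me3 and 1 for non-specific IgG. Both carried the ubiquitous actin driver and the temperature-sensitive GAL80 repressor. Larvae were kept at 25 °C until 44 h after egg laying and at 32 °C for the next 72 h, when the transgene was on. At 116 to 119 h after egg laying, 20 discs were pooled per replicate, so each library holds whole discs of many cell types.

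PRC1 is one of the main silencing complexes of the Polycomb group, and H3K27me3, written by Polycomb repressive complex 2, is the mark that its Pc subunit reads. Sce (the RING1 homolog) is the ubiquitin ligase that modifies histone H2A, with Psc or its relative Su(z)2 as its partner, and the ph proteins and Scm join through SAM domains that form polymers. Several Polycomb group genes are known to be bound by Polycomb proteins themselves, so the genes of the complex can be both its source and its targets.

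The values come from 2 lists made by the authors. The first gives H3K27me3 peaks in H3K27R control discs, as 1 list for both replicates, with the authors' fold enrichment and −log10 q-value per peak. The second gives genes upregulated with H3K27M, without expression values. Both genotypes express a mutant histone, so the control discs are not wild type. No value had a replicate, so none carries an error, read depth is unknown, and the statements below are descriptions with no test. The peaks of H3K27M discs were not analysed here, so nothing below is a change of the mark between the genotypes. As a look at the tissue label, the abdominal Hox genes abd-A and Abd-B lay wholly within peaks, as did the wing genes vg and nub. The dorsal wing selector ap was covered over 60.8% of its span. Their folds differed, with a highest peak of 15.0-fold over abd-A and Abd-B, 4.90-fold over vg, 6.91-fold over nub and 6.23-fold over ap. A low fold in whole discs may be fewer marked cells or less of the mark per cell, which cannot be told apart.

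The mark divided the 7 genes into a locus inside a large H3K27me3 domain, a locus with separate peaks of up to 2317 bp, and genes without a peak. Of the 7 genes, 3 overlapped a peak by at least 1 bp, where 7.22% of all protein-coding genes did. Su(z)2 was covered over 92.9% of its span and Psc over 72.4%. The third, ph-p, was covered over 1.50%, or 183 bp. ph-d, Pc, Sce and Scm were covered over 0%. With at least 50% of the span required, 2 of the 7 remained, Psc and Su(z)2, where 4.04% of protein-coding genes met that rule. The same 2 genes were left when peaks needed a −log10 q-value of 10 or more, called strong peaks from here on (background 3.43%) or a fold enrichment at or above the median of all peaks, 2.39 (background 5.21%). Psc and Su(z)2 are neighbours under 1 domain and do not count as separate observations. The median covered share was 0% over the 7 genes and 0% over all protein-coding genes.

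**Figure D1:**
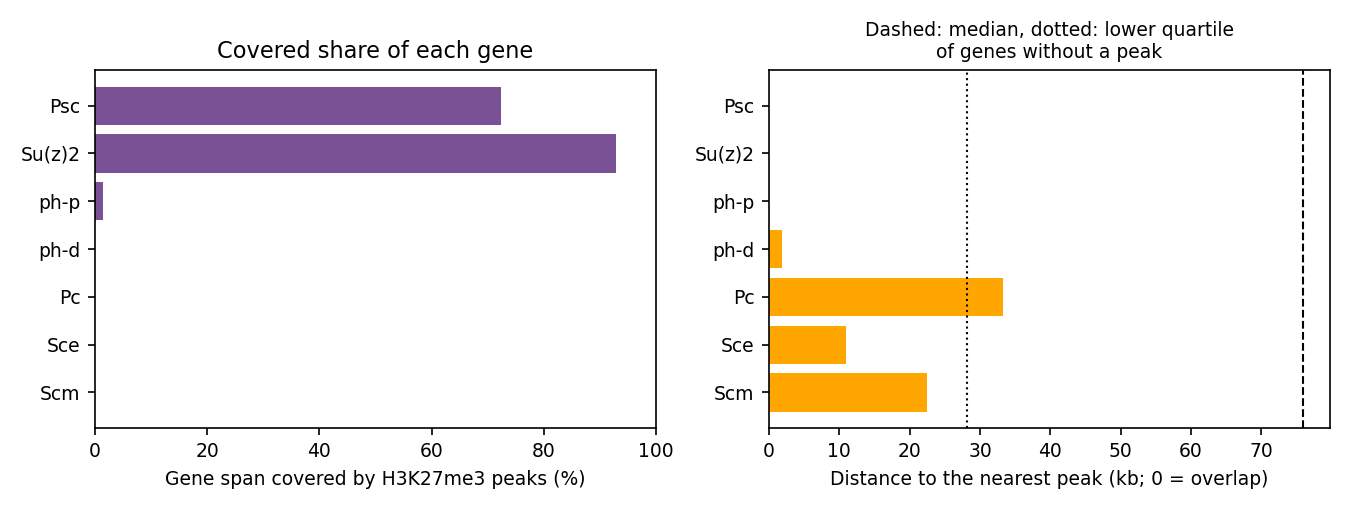
Covered share of each gene by H3K27me3 peaks of H3K27R discs (left, percent of the gene span) and distance from each gene to its nearest peak (right, kb), 1 bar per gene. Psc and Su(z)2 stand at 72.4% and 92.9%, ph-p at 1.50% and the other 4 at 0%, and all 4 lie nearer to a peak than the median gene without one, drawn as the dashed line.

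Psc, a RING finger subunit of the complex, lies on 2R at 12965997 to 12980994, a span of 14998 bp. Su(z)2, which encodes its relative, lies 15506 bp further along at 12996501 to 13007911, a span of 11411 bp. Both sat within a single domain, defined by joining peaks across gaps of up to 5000 bp, that ran from 12943800 to 13048171. At 104372 bp it ranked 19 of 748 domains by width and 3 of 136 on its arm, while the median domain was 3174 bp wide. Its highest peak stood at 9.41-fold, which ranked 77 of 748 domains, with a median of 2.52-fold.

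The domain was broken into more pieces than most. It was made of 11 peaks, which ranked 6 of 748 domains. Of the 24 domains of at least 100 kb it ranked 5 by number of peaks, where the median was 7, and 20 by the share of its width under peaks, 86.0% where the median was 93.6%. Its length-weighted mean fold, 6.73, was close to the median of those 24, 6.76. The domains nearest to it in width were, on the wider side, those over ham, B-H2 and CG5888, and on the narrower side those over svp, lbl and pb. These spanned 103744 to 107554 bp, and their highest peaks ran from 6.64-fold over B-H2 to 15.0-fold over pb, the Hox gene of the adult mouthparts. Of these 6 domains, those over B-H2 and lbl were a single peak each, and that over pb came closest in make-up with 9 peaks and 82.1% covered.

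**Figure D2:**
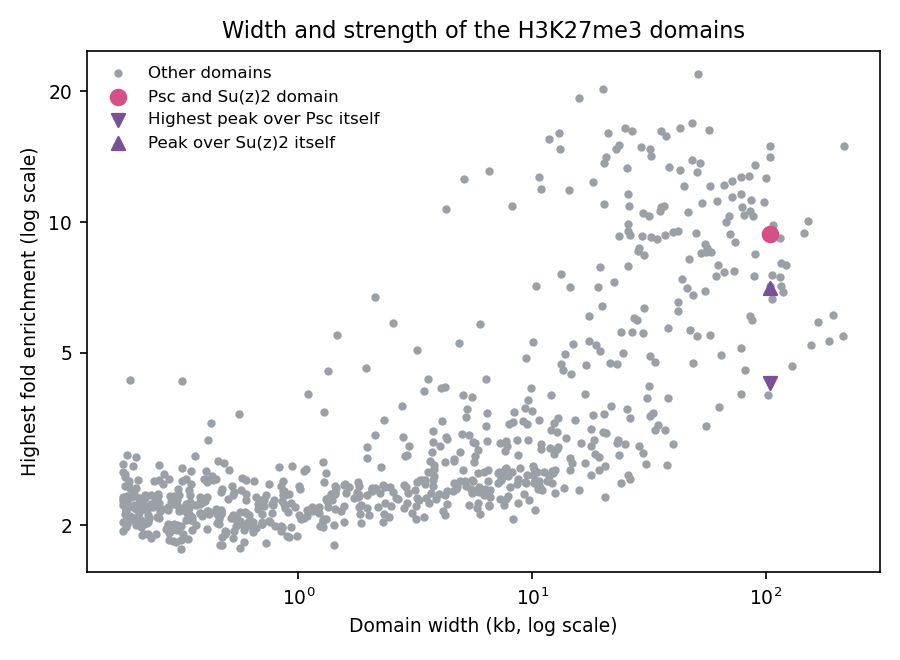
Each point is one of the 748 H3K27me3 domains of H3K27R discs, by width (kb, log scale) and highest fold enrichment (log scale). The Psc and Su(z)2 domain lies among the wide, strong domains at 9.41-fold, with triangles for the highest peak over Su(z)2 itself (7.06-fold) and over Psc itself (4.24-fold).

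The domain held strong and weak peaks, with the weak ones at both borders and inside Psc. The 6 strong peaks were 4011 to 34109 bp wide and 4.24 to 9.41-fold enriched, and made up 90.7% of the covered length. The other 5 were 178 to 3366 bp wide and 2.08 to 2.38-fold enriched, all below the median of the whole list. In map order the domain opened with a 1356 bp peak of 2.08-fold inside Mdr49, followed by 10136 bp at 7.90-fold over CG44251, CG44250 and CG13321. The next 3 peaks overlapped Psc. Beyond Psc came 4011 bp at 7.61-fold and 10415 bp at 8.13-fold in the interval up to Su(z)2. The widest peak, 34109 bp at 7.06-fold, held most of Su(z)2 and reached 13031420, well past its end. The highest, 10273 bp at 9.41-fold (13032793 to 13043065), overlapped no annotated gene, and 84 of the 1709 peaks were higher. It was followed by peaks of 2038 bp at 2.21-fold, over CG13323, and 178 bp at 2.09-fold.

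Of the 5 consecutive parts into which the 2 genes divide the domain, Psc had the lowest mean fold and the lowest covered share. Its span was covered by 3 peaks. A 12483 bp peak of 4.24-fold (−log10 q-value 17.0) overlapped 6105 bp, or 40.7% of the gene, at the end farthest from the start site. The other 2 were weak, 1389 bp at 2.22-fold (−log10 q-value 2.28) and 3366 bp at 2.38-fold (−log10 q-value 3.13). Each peak has a single fold for its whole width, so each part takes the folds of its peaks, weighted by the length within it. The 4.24-fold peak thus counts both for Psc and for the part below it. Likewise, the 7.06-fold peak counts for Su(z)2 and for the part above it. By this measure the mean fold of Psc was 3.41. It was 6.15 in the part of the domain below Psc, 7.98 between the 2 genes, 7.06 over Su(z)2 and 7.43 above Su(z)2. The covered share of these parts was 80.5%, 93.0%, 92.9% and 89.4%, all above the 72.4% of Psc. With strong peaks only, the covered share of Psc fell to 40.7% and that of Su(z)2 stayed at 92.9%.

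**Figure D3:**
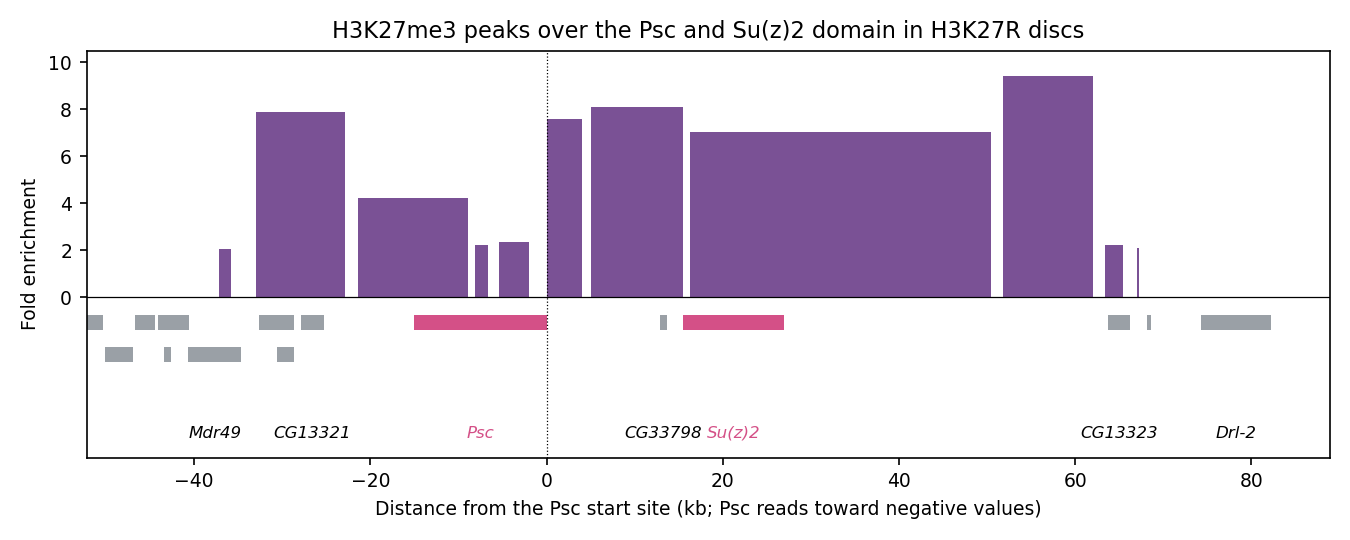
H3K27me3 peaks of H3K27R discs over the Psc and Su(z)2 domain, as blocks whose width is the peak and whose height is the authors' fold enrichment, against distance from the Psc start site (kb). Bars below are protein-coding genes, with Psc and Su(z)2 in pink and some others named. The 3 peaks over Psc reach 4.24-fold at most, while that over Su(z)2 stands at 7.06-fold and the peak right next to the Psc start site at 7.61-fold.

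Among genes in domains of at least 100 kb, the peaks over Psc were low for its domain and that over Su(z)2 was near the median. For the 133 protein-coding genes with a peak that lay wholly in a domain of at least 100 kb, the mean fold over the gene was divided by the mean fold of its own domain. The median ratio was 1.02. Folds belong to whole peaks, so a gene in a domain of a single peak has a ratio of 1 by construction. A wide peak, such as the 7.06-fold one over Su(z)2, also sets much of the mean it is divided by. Psc stood at 0.51, with 11 of the 133 genes lower (8.27%), and Su(z)2 stood at 1.05, with 70 lower. The 133 include the genes of this same domain, and CG13323 (0.33) was among the 11. Among all 1005 protein-coding genes that overlapped a peak, the median covered share was 68.0% and the median of the highest fold 3.14. Both genes were above both medians, and 482 genes had a higher covered share than Psc and 396 than Su(z)2. By highest fold, 426 genes stood above Psc and 300 above Su(z)2.

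**Figure D4:**
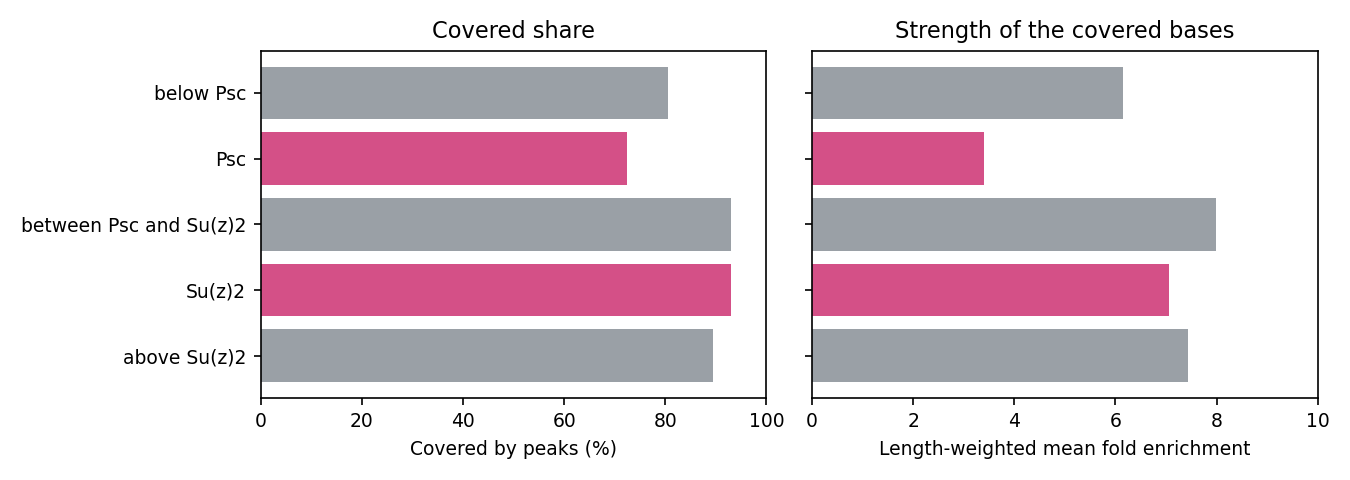
The 5 consecutive parts of the Psc and Su(z)2 domain in map order. The left panel gives the share of each covered by peaks (percent). The right panel gives the mean fold enrichment of the whole peaks that overlap it, weighted by their length within the part. Psc has the lowest value in both panels, 72.4% and 3.41, while the stretch between the genes has 93.0% and 7.98.

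Psc and Su(z)2 each had 1 end in a break of the domain and the other end inside a peak. The upregulated list gives Psc on the minus strand, which puts its start site at 12980994. That position lay in an uncovered gap of 2040 bp (12978974 to 12981013). The 7.61-fold peak began 19 bp beyond the start site, and the nearest covered base within the gene lay 2020 bp into it. The lower end of Su(z)2, at 12996501, lay in a gap of 866 bp (12996446 to 12997311), 55 bp from the 8.13-fold peak below it and 810 bp from the 7.06-fold peak within the gene. The strand of Su(z)2 is not in the files used here, so this end was not assigned as its start. The 10 gaps of the domain were 821 to 2818 bp long, with a median of 1336 bp, and took up 14618 bp or 14.0% of it. An end in a gap was not rare. Of the 381 protein-coding genes wholly inside a domain of at least 2 peaks, 127 (33.3%) had one, and in this domain CG13323 did as well.

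The domain held 8 protein-coding genes and 1 long non-coding RNA gene. CG44251, CG44250, CG13321 and CG33798 were covered over 100% of their spans. CG13323, at one border, was covered over 66.7% and Mdr49, an ABC transporter gene at the other border, over 22.5%, both by weak peaks. lncRNA:CR44339 lay between the 2 Polycomb genes in a gap and was covered over 0%. Outside the borders, Sans ended 3387 bp below the domain and CG13324 began 974 bp above it, and neither overlapped a peak. The nearest domains on either side were 28457 bp below, a single 31859 bp peak of 4.90-fold over the wing selector gene vg, and 29281 bp above, 729 bp at 2.35-fold in Drl-2, a gene of a Wnt receptor family. Allowing gaps of up to 20000 bp did not join either to it.

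How far the domain is one piece depended on the joining distance and on whether weak peaks were kept. Without joining, and with joining across 1000 bp, no single domain held both genes, and the widest that touched either was 34109 and 45390 bp. With strong peaks only, joined across 5000 bp, it split into 24128 bp (12947974 to 12972101) that ended inside Psc and 62052 bp (12981014 to 13043065) that began next to the Psc start site and held Su(z)2.

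ph-p and ph-d, a tandem pair that encodes the 2 Polyhomeotic proteins, carried no domain of this kind. ph-d lies on X at 2115727 to 2123286 and ph-p at 2126210 to 2138371, 2923 bp apart, and their strand is not in the files used here. There were 3 peaks at the locus. The first, 420 bp at 2.32-fold (2125201 to 2125620), lay in the interval between the 2 genes, 1914 bp from ph-d and 589 bp from ph-p. The second, 183 bp at 2.09-fold (2126811 to 2126993), began 601 bp inside ph-p and was the only overlap with either gene. The third was the strongest, 2317 bp at 3.50-fold with a −log10 q-value of 9.24 (2138401 to 2140717), and it began 29 bp beyond the other end of ph-p, in the interval before D2hgdh. Of the 1709 peaks, 279 were higher than the third, 963 than the first and 1391 than the second. The small covered share of ph-p therefore leaves out a peak that stopped just short of the gene.

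Widening the gene spans took in more of this locus. With 1000 bp added on each side the count stayed at 3 of 7 genes (background 8.68%), and with 5000 bp it was 4 of 7 (background 12.8%), the addition being ph-d. As neighbours at this locus, ph-d and ph-p do not count as separate observations. The genes next to the pair had no peak. csw, a phosphatase gene that ends 25 bp before ph-d, and D2hgdh were each covered over 0%. On the side of csw the nearest peak to ph-d was 624141 bp away.

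**Figure D5:**
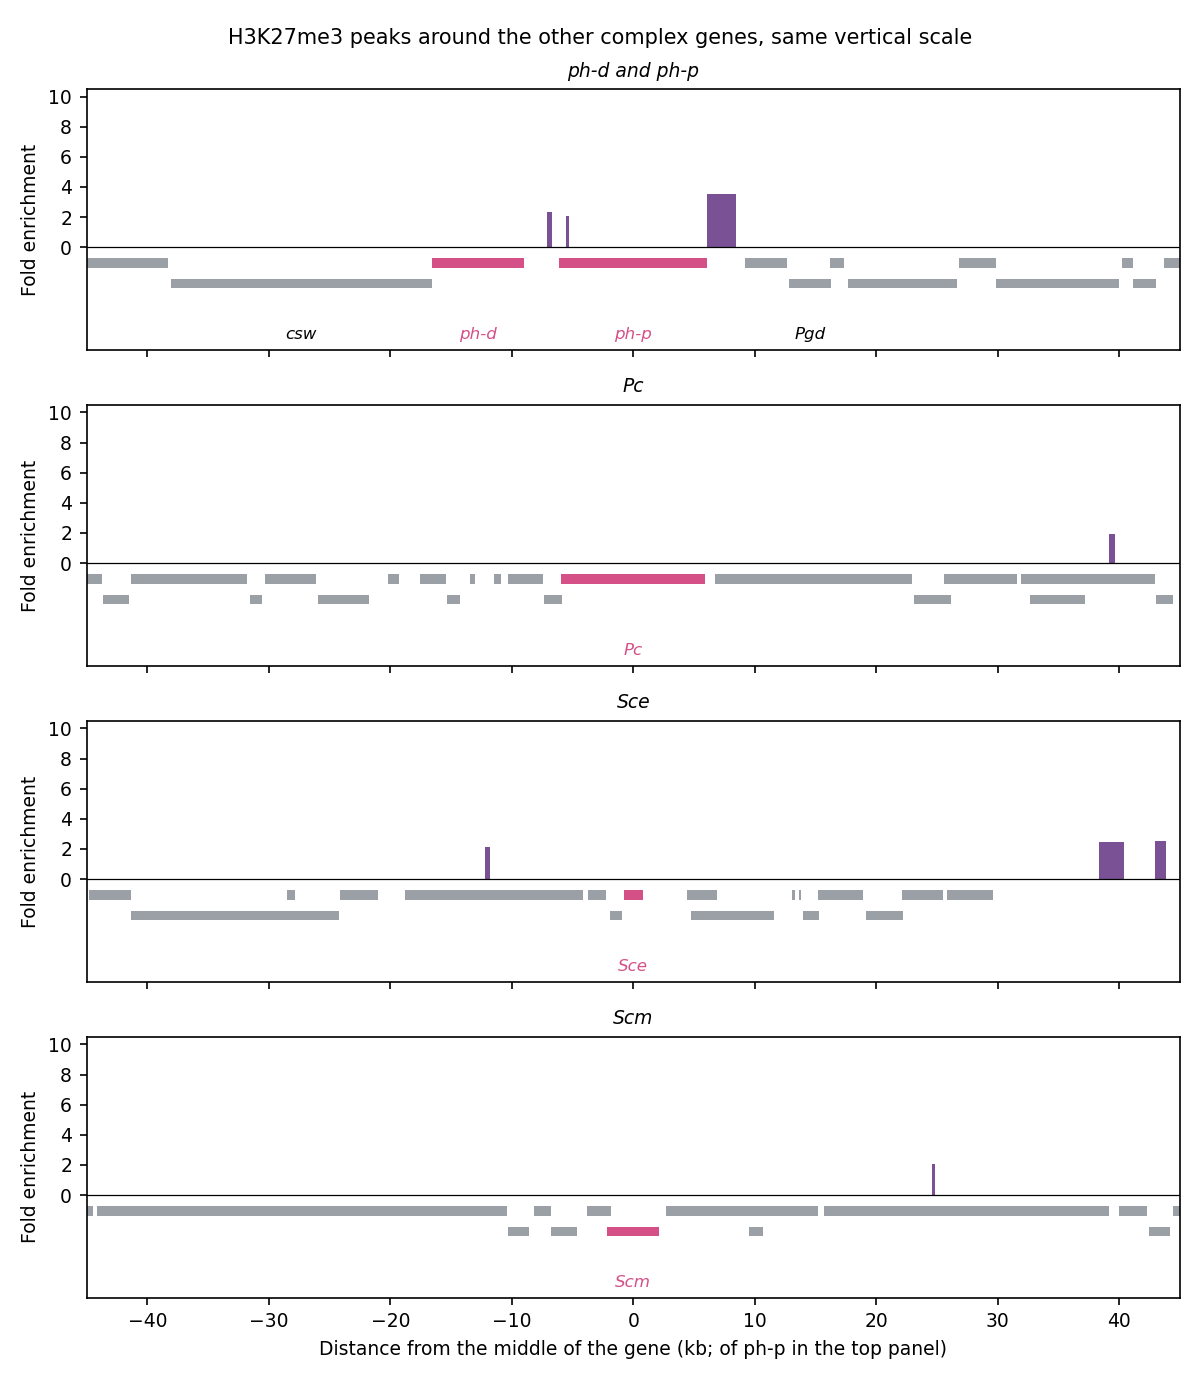
H3K27me3 peaks of H3K27R discs around ph-d and ph-p, Pc, Sce and Scm, drawn as in the map of the Psc and Su(z)2 domain and on the same vertical scale, against distance from the middle of the gene (kb; of ph-p in the top panel). The ph locus has peaks of 2.32, 2.09 and 3.50-fold at the edges of ph-p, and the genes Pc, Sce and Scm have none over them.

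Pc, Sce and Scm had no peak over them or over the genes that overlap or flank them. Pc, the chromodomain subunit that binds H3K27me3, lies on 3L at 21306138 to 21318020, and its nearest peak was 33212 bp away, 485 bp wide and 1.94-fold enriched. Sce, the ligase subunit, lies on 3R at 27680431 to 27682029, and its nearest peak was 10967 bp away, 411 bp wide and 2.16-fold enriched. Scm, an MBT and SAM domain protein that associates with the complex, lies on 3R at 9633359 to 9637611, and its nearest peak was 22462 bp away, 199 bp wide and 2.08-fold enriched. All 3 of these nearest peaks were below the median fold of the list and narrower than its median width of 1058 bp. Pc shares 60 bp with CG7632 and Scm 315 bp with SpdS, and both of these genes were covered over 0%. The nearest protein-coding genes that do not overlap them were CG11309 and Rab26 for Pc, CG12883 and CG31055 for Sce, and Calr and Dh44 for Scm, and each was covered over 0%.

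The 4 genes without a peak nonetheless lay closer to one than most genes without a peak, of which there were 12917 with a median distance of 75919 bp. Of those genes, 2.62% were nearer to a peak than ph-d, 11.8% than Sce, 21.0% than Scm and 28.2% than Pc. These peaks were small and weak, and with 4 genes no test was made.

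Of the 7 genes, only Psc was among the genes the authors list as upregulated with H3K27M, where 0.941% of all protein-coding genes stand. Su(z)2, ph-p, ph-d, Pc, Sce and Scm were not in it, and neither was any other gene of the Psc and Su(z)2 domain. The authors' deposited list gives no size of change, so a gene outside the list may have been unchanged, lower or not measured. Among all protein-coding genes, 0.108% were both in the list and over a peak, 15 genes in all. Within those 15, Psc ranked 2 by the fold of the peak over it, after zfh2, a zinc finger homeodomain gene (4.72-fold), and 3 by covered share. By the width of its domain it ranked 3, after Kots (122049 bp), which runs past the end of its domain, and bard (116227 bp). Of the 24 domains of at least 100 kb, 3 overlapped a listed gene, and these were Kots, bard and Psc. Domains of this width overlapped 146 other protein-coding genes with a peak. For comparison, the 15 listed genes stand among 1005 protein-coding genes with a peak anywhere.

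Most other genes of Polycomb and Trithorax function had no called peak, as was so for most protein-coding genes. Of 45 such genes in 5 lists, 1 overlapped a peak and 0 were in the upregulated list, beside the same backgrounds of 7.22% and 0.941%. At such backgrounds few of 45 genes would be counted in either case, and no test was made. The gene with a peak was grh, the Grainyhead transcription factor, counted here with the recruiters, which was covered over 1.15% of its span by peaks of 231 and 247 bp, the higher at 3.65-fold. None of the 8 genes of Polycomb repressive complex 2 overlapped a peak, among them E(z), the methyltransferase that writes H3K27me3, and the nearest of them to a peak was 15650 bp away. None did among the 3 partners of variant PRC1 (RYBP, Kdm2 and l(3)73Ah), the 7 genes of the deubiquitinase complex and other Polycomb group genes, or the 16 Trithorax group genes, which counteract Polycomb silencing. Of the 45 genes, the nearest to a peak without overlapping one was osa, a Trithorax group gene of a chromatin remodeller, at 1799 bp. The median distance to a peak was 75650 bp over the 45 genes, 1914 bp over the 7 PRC1 genes and 67084 bp over all protein-coding genes. The 1914 bp is the distance of ph-d alone, and Psc with Su(z)2 and ph-d with ph-p are pairs of neighbours. Pc, Sce and Scm lay 33212, 10967 and 22462 bp from a peak.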

How the data were processed

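The labels place 6 libraries in 4 groups, and 2 files of the series were analysed. The submitters' processing notes name Bowtie2, MACS2 and dm6, without versions. Which threshold and control the peak calling used is not stated there. Peaks of H3K27R discs are deposited as 1 list for both replicates, with a fold enrichment (a ratio over the caller's background), a −log10 q-value per peak, and a p-value and score that were not used; the columns follow the file layout, since there is no header. The authors' list of upregulated genes holds intervals with strand and a score of 0, and how the genes were called is not stated. All 148 intervals equalled the span of a gene in the RefSeq table of Release 6 and took its symbol.

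Covered share is the percent of a gene span under peaks, distance is the uncovered sequence between gene and peak, and a domain joins peaks across gaps of up to 5000 bp. Mean folds use the single fold of each whole peak, weighted by covered length. Coordinates are 1-based. Interval functions were tested on simulated data (Python 3.11.15, pandas 2.3.3). The 7 genes and the lists were chosen with earlier results of these data known. The genes named are the 7, the genes in or beside their peaks and domains, their nearest protein-coding neighbours, listed or covered genes of the other lists, and the 3 domains next in width on each side; other genes (such as E(z), osa, zfh2, Kots and bard) serve as examples chosen after their values were seen. calypso was matched by synonym. No sequences are shown.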

Additional observations from a re-analysis of the deposited data

How the results depend on the processing

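No paired analysis was possible because both replicates share 1 peak list without separate values, and no replicate could be left out for the same reason. The count of PRC1 genes over a peak ranged from 2 to 4 over 5 alternatives, and the count in the upregulated list was 1 with any overlap too. The covered share of Psc (72.4%) was 40.7% with strong peaks only (−log10 q-value from 10 up) and 40.7% with peaks of at least the median fold. Both settings left out the same 2 peaks over Psc, and the wider one, at 2.38-fold, was only just under the median of 2.39. The covered share of Psc was 100% with gaps of up to 5000 bp filled and 75.5% with 1000 bp added on each side. The covered share of Su(z)2 (92.9%) was 100% with gaps filled and 93.5% with 1000 bp added. The width of their domain (104372 bp) was the same with joining across 10000 and 20000 bp. No single domain held both genes without joining (widest 34109 bp), with joining across 1000 bp (45390 bp) or with the stricter peaks (62052 bp), since some gaps between the peaks are then longer than the joining distance. The highest fold of the domain (9.41) compares with a length-weighted mean of 6.73. Fold, width and q-value of a peak depend on sequencing depth, which is unknown, and weak peaks depend on the caller's threshold.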

Other observations

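The 3 upregulated genes that overlap domains of at least 100 kb, Psc, Kots and bard, each met only peaks weaker than the mean of its own domain. The highest peak over Psc was 4.24-fold where its domain had a length-weighted mean of 6.73-fold, that over bard 3.14-fold in a domain with a mean of 5.62-fold, and that over Kots 2.22-fold in a domain with a mean of 7.13-fold. Psc and bard lie wholly in their domains, whereas Kots (3R 13960712 to 13964174) runs past the border of its own at 13962843 and was covered over 35.5%. Of the 146 other protein-coding genes with a peak that overlap such domains, 45 (30.8%) were below the mean of their domain in the same way. The 146 include genes in domains of a single peak, which cannot be below the mean, and this lowers the share. The domains of Psc, Kots and bard each have several peaks. The comparison was chosen after the values were seen and rests on 3 genes, so no test was made.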
